A study of Mus musculus with 2 samples.

Results

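Carriers of the Slc1, Slc3, Slc6, Slc7, Slc36, Slc38 and Slc43 families, which move amino acids and related compounds across the plasma and lysosomal membranes, were followed in liver of wild type and Drp1 knockout mice. They were every gene whose name in the array files starts with one of these family names and a number, which gave 63 genes of 30163, read by 83 of 39429 probes. Liver RNA of male C57BL/6J mice, wild type or knockout for Drp1, the GTPase that divides mitochondria, was hybridised to 1-colour Agilent mouse arrays, 1 array per group. Both groups had received, from the age of 4 weeks and for 24 weeks, a high-fat diet with 24% fat from lard that supplied 45% of the calories. The labels give neither the Drp1 allele, what drove its deletion, nor how many animals stand behind a sample, and the series' title places the disruption in the liver. Whether these samples were collected fasted or refed is not given for either, and the part of feeding in any difference was not tested.

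Amino acid carriers differ in substrate and in what drives them. Some are single proteins that use the sodium or proton gradient, while others are light chains that reach the membrane only when joined to a heavy chain and exchange one amino acid for another. In the liver they feed protein synthesis, glucose production, the urea cycle and glutathione synthesis, and hepatocytes near the portal vein take up glutamine and make urea whereas a thin layer around the central vein takes up glutamate and makes glutamine. Several carrier genes are known targets of Atf4, the transcription factor of the integrated stress response, which raises amino acid supply.

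Levels are given relative to the 75th percentile of signals on the same array, and differences are log2 values, knockout minus wild type. With 1 array per group no difference was tested and none has a replicate check. A gene was counted as higher or lower from 1.5-fold. Spots of the same probe gave an SD of a difference of 0.21 for the 81 dimmest of 241 repeated probes (up to 0.481 times the 75th percentile) and of 0.08 for the 80 brightest, which covers measuring error on the arrays and not the spread between mice. Brightness differs between probes for reasons other than RNA amount, so the level of one gene was not set against that of another. In bulk tissue, fewer cells of a type and less RNA per cell cannot be told apart. Fgf21, the hormone of the study's title, read 3.37 in the wild type and 20.2 in the knockout. The single probe of Dnm1l, the gene that encodes Drp1, read 2.03 and 1.75, and because the deleted part of the gene is not given it does not check the knockout label.

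Of the 63 genes, 34 had a probe well above background on both arrays, 2 in the knockout only, 0 in the wild type only and 27 in neither. Where a gene is called below background in what follows, it was not well above background by this measure. Of the 34, 5 (14.7%) were higher by 1.5-fold or more in the knockout and 6 (17.6%) lower. Among all 15385 measured genes 8.42% were higher and 13.4% lower. At 2-fold 3 of the 34 (8.82%) were higher and 4 (11.8%) lower, against 2.91% and 3.64% of all genes. The median difference of the 34 was -0.14, and that of all genes -0.11. Carrier genes as a whole thus had a median close to that of the transcriptome, while single members stood as far out as the 99.4th percentile (Slc6a17) and below the 1st percentile (Slc1a5 and Slc1a7) of all measured genes. Each of these extremes rests on 1 probe measured on both arrays and had no value with a stricter filter on dim probes. For Slc1a5 a second probe pointed the other way. A scaling to spike-in spots instead of the 75th percentile added 0.82 to every difference, so that any difference between -0.82 and 0 turned positive, and the number of the 34 below 0 went from 20 to 4. With it 21 carriers counted as higher and 3 as lower. Loess normalization left 1506 of all genes higher and 1461 lower, in place of 1296 and 2060. Directions below are those within the array scaling, and a reversal by the spike-in scaling is named where a carrier counted as higher or lower.

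**Figure D1:**
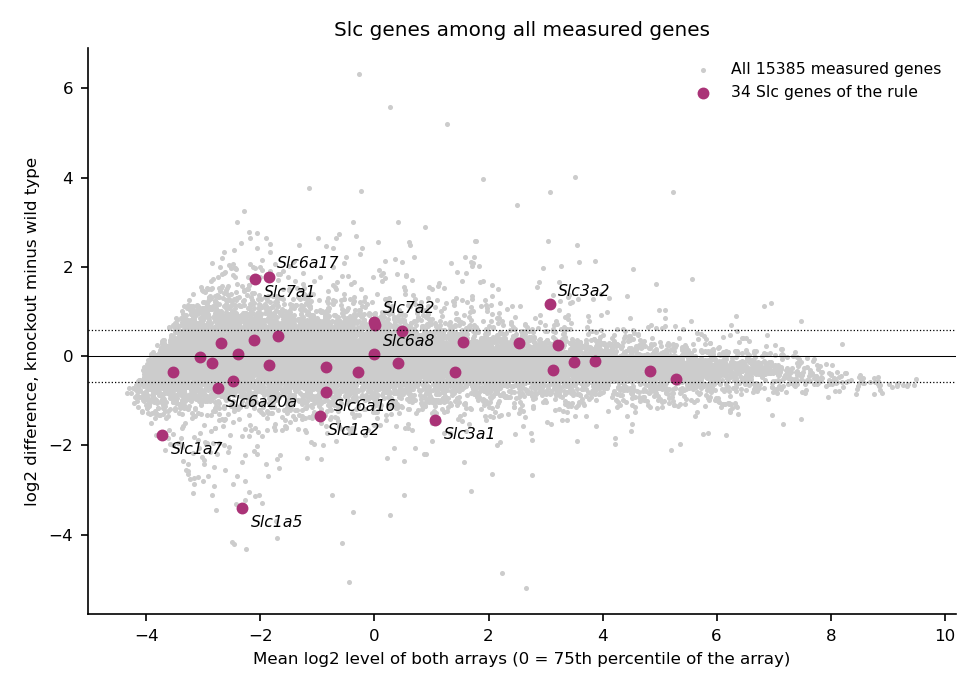
Each grey point is 1 of the 15385 measured genes and each purple point 1 of the 34 measured Slc genes, with the mean log2 level of both arrays on the horizontal axis and the log2 difference, knockout minus wild type, on the vertical axis. Dotted lines mark 1.5-fold, and the 11 named genes lie beyond them, from Slc6a17 at 1.78 to Slc1a5 at -3.40.

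The values of the genes that differed rest on few probes, so the probes themselves are shown first. Each is a 60-base oligonucleotide, of which the first 30 bases are printed 5′ to 3′ as the array files give them, in lower case, with its mm9 position. Shown are the probes of both heavy chains, of the 2 higher cationic carriers, of Slc6a17 and Slc6a14, and those of Slc1a2 and Slc1a5, where several probes of 1 gene can be set side by side; the other genes that differed are described by their values.
Slc3a2 (chr19:8782189-8782248, minus strand): gagggcttgctgttacagttcccctttgtg
Slc3a1 (chr17:85463142-85463201, plus strand): tggttctgaattttggagaatcatcaactg
Slc7a1 (chr5:149139957-149140016, minus strand): aggcttgttttggtttgcgaaatactttga
Slc7a2 (chr8:42002869-42002928, plus strand): ttttttactgtggacaaaaaagacacagat
Slc6a17 (chr3:107270761-107270820, minus strand): tcaactagagtatgcccactgtgaaaagag
Slc1a2, first probe (chr2:102617752-102617811, plus strand): aagcaactctaatcagtgtgtctatgccgc
Slc1a2, second probe (chr2:102622252-102622311, plus strand): gtagaatgtttcagagtttcatgggtgccc
Slc1a2, last probe (chr2:102626380-102626439, plus strand): aacccagtttccagcattcagacatcagta
Slc1a5, first probe (chr7:17383027-17383086, plus strand): aacagtaccagggacccaccggggactcca
Slc1a5, second probe (chr7:17383359-17383418, plus strand): cctaccctctcaggaaatgggttgtcctgt
Slc6a14 (chrX:21318999-21319058, plus strand): tctaaacatgttatcaatttattatgtatc
The whole Slc6a14 probe holds 26.7% G and C, against 53.3% in that of Slc3a2. Exon and UTR annotation of these positions was not used here.

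Both heavy chains were measured, and they differed in opposite directions. Slc3a2, the heavy chain also known as CD98 that carries most light chains to the plasma membrane, read 5.60 in the wild type and 12.6 in the knockout. It was 2.25-fold higher in the knockout, and the difference lay between 1.17 and 1.36 under all settings that scale within the arrays. Slc3a1, the heavy chain best known from cystine uptake in kidney and gut, read 3.46 in the wild type and 1.27 in the knockout, or 2.71-fold lower. Its difference of -1.44 stayed below 0 with spike-in scaling, at -0.62.

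Of 10 light chain genes, 3 were measured and none of these 3 differed by 1.5-fold. Slc7a7, which exchanges cationic for neutral amino acids and sodium, read 1.15 in the wild type and 1.70 in the knockout. Its 1.47-fold difference lay just under the threshold, and passed it with quantile and with loess normalization (0.59 each). Slc7a8, an exchanger of neutral amino acids, was printed in 10 copies on each array. The copies ran from 0.121 to 0.151 with a median of 0.143 in the wild type, and from 0.152 to 0.185 with a median of 0.174 in the knockout. The log2 SDs of the copies were 0.10 and 0.08 (n = 10 spots each). The gene's difference was only 0.29 and turned to -0.06 with normexp background correction. The 10 spots repeat 1 RNA sample each and say nothing of other mice. Slc7a5, the exchanger of large neutral amino acids that supplies leucine to growing cells, read 0.0978 and 0.0762, a difference of -0.36 from 1 probe. Its other probe was not well above background on either array. Slc7a9, the usual partner of Slc3a1, and Slc7a11, which imports cystine for glutathione synthesis, were not well above background on either array, like Slc7a6, Slc7a10, Slc7a12, Slc7a13 and Slc7a15. The higher level of Slc3a2 thus stood beside no 1.5-fold difference of a light chain measured on both arrays at this scaling.

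Among the cationic amino acid carriers, which take up arginine, lysine and ornithine without sodium, 2 of 3 measured genes were higher in the knockout and 0 lower. Slc7a1, the widely expressed carrier of this group, read 0.129 in the wild type and 0.429 in the knockout, or 3.33-fold higher. That size depended on the background correction, and was 0.98 in place of 1.74 on the log2 scale with normexp. Slc7a2, a further carrier of this group that hepatocytes express, read 0.762 in the wild type and 1.30 in the knockout, or 1.71-fold higher. The related Slc7a4 read 0.121 and 0.119, while Slc7a3 and Slc7a14 were below background on both arrays.

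**Figure D2:**
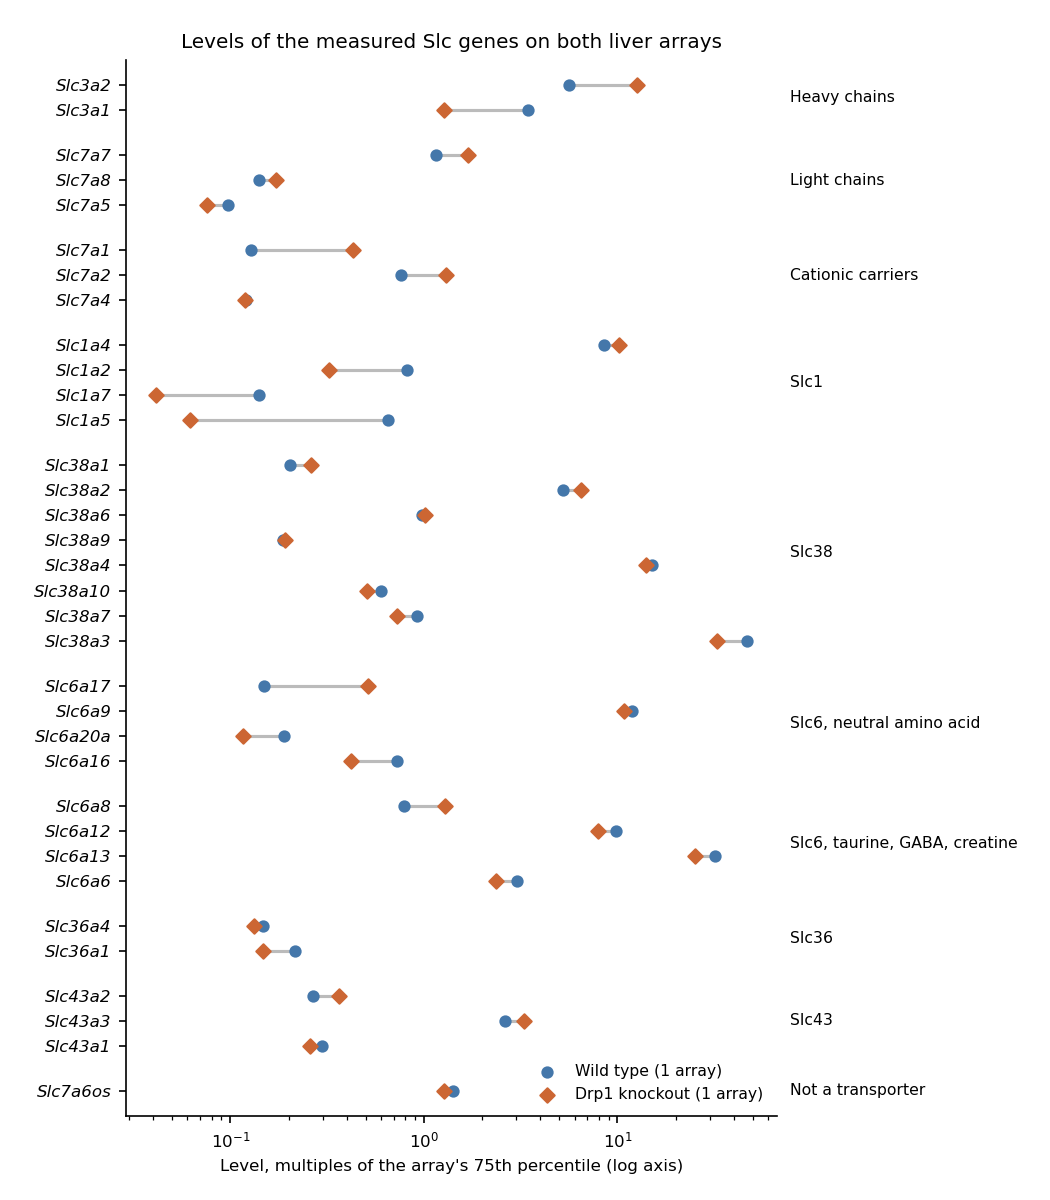
Points give the level of each of the 34 measured Slc genes on the wild type array (circles) and the Drp1 knockout array (diamonds), as multiples of the array's 75th percentile on a log axis, 1 array per group and no error bars. Genes are grouped by role, and the longest lines between points belong to Slc1a5, Slc6a17, Slc1a7 and Slc7a1.

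The Slc1 family holds carriers of glutamate and of small neutral amino acids. Of its 4 genes measured on both arrays 3 counted as lower in the knockout, with 0 higher. Among the 3 is Slc1a5, whose probes pointed in opposite directions. Slc1a1, well above background in the knockout alone, is outside this count, and both are described below. Slc1a2, the glutamate carrier that the liver expresses around the central vein, was lower by each of its 3 probes. The first read 7.24 in the wild type and 3.23 in the knockout, the second 0.434 and 0.193, and the third 0.175 and 0.0538. The knockout value of the third lay near the lowest level well above background on that array, 0.0368. The 3 probes gave differences of -1.17, -1.17 and -1.71 and a gene difference of -1.35, or 2.55-fold, which shrank to -0.52 and so to under 1.5-fold with spike-in scaling. Slc1a7, a glutamate carrier described mainly in retina, read 0.140 and 0.0411. The knockout value lay next to the lowest level well above background on that array, 0.0368, and the difference of -1.77 shrank to -0.92 with normexp. Slc1a4, which carries serine, alanine, cysteine and threonine, read 8.56 and 10.2, a difference of 0.26. Slc1a3 and Slc1a6, further glutamate carriers, were below background on both arrays.

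Slc1a5, the sodium-dependent exchanger of glutamine and other neutral amino acids, gave no single answer. Its first probe read 0.650 in the wild type and 0.0617 in the knockout, which is 10.5-fold lower. The knockout value lay near the lowest level well above background on the knockout array, 0.0368. With normexp Slc1a5 differed by -2.16 in place of -3.40. Its second probe, 332 bases further along the same transcript, read 0.0403 and was not well above background in the wild type, but read 0.158 and was well above it in the knockout, which is at least 2.67-fold higher. The probes thus pointed in opposite directions, and the gene counted as lower only because the first was measured on both arrays. Without Slc1a5, a choice made after its values were seen, 5 genes of 33 were lower. With the second probe included despite its low signal, the gene difference went from -3.40 to -0.71.

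Slc1a1, a carrier of glutamate and cysteine, was well above background in the knockout alone. It was printed in 10 copies, of which 7 were usable in the wild type and 9 in the knockout. In the wild type the copies ran from 0.0130 to 0.0174 with a median of 0.0137, and 0 of them were well above background. In the knockout they ran from 0.0779 to 0.106 with a median of 0.0932, and all 9 were well above background. Slc1a1 was at least 1.55-fold higher in the knockout, a bound set by 0.0593, the lowest wild type level that was well above background. These spots too repeat 1 RNA sample on each array and say nothing of other mice.

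**Figure D3:**
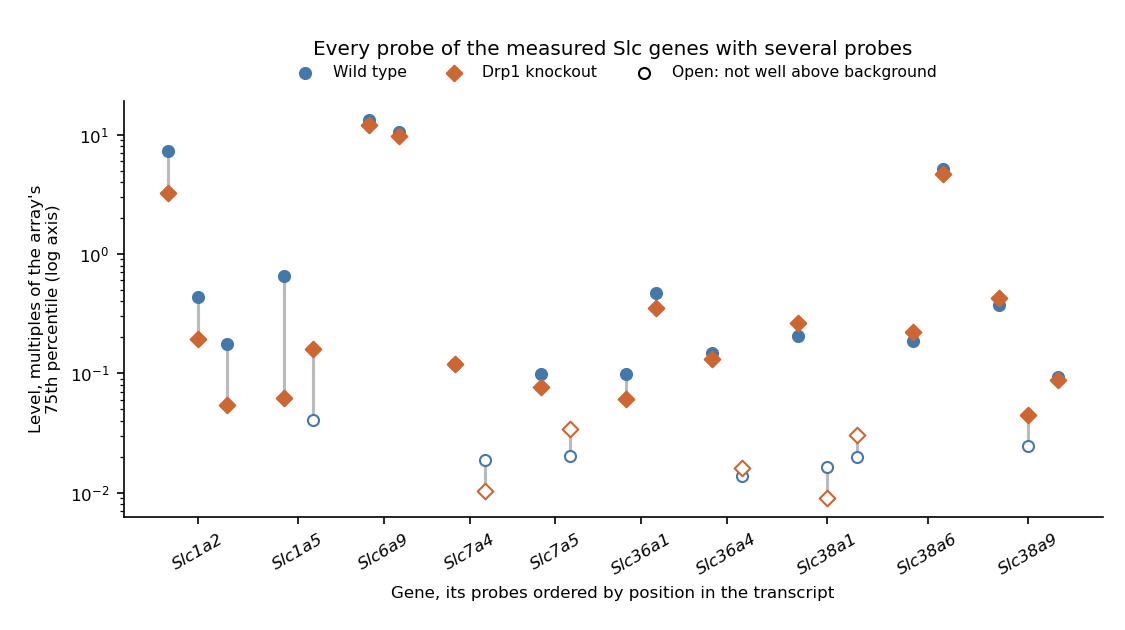
Each column is 1 probe of the 10 measured genes that have several, in order of position in the transcript, with its level on the wild type (circles) and knockout (diamonds) array as multiples of the 75th percentile on a log axis; open symbols were not well above background. All 3 probes of Slc1a2 were lower in the knockout, and those of Slc1a5 crossed.

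Members of the Slc38 family carry glutamine, alanine and related amino acids, and none of the 8 measured members differed by 1.5-fold. Slc38a2, the system A carrier that cells raise when amino acids run short, read 5.23 in the wild type and 6.45 in the knockout, a difference of 0.30. Slc38a4, the system A carrier typical of liver, read 15.2 and 14.1, and Slc38a1 0.204 and 0.262. Slc38a3, the system N carrier that exchanges glutamine, histidine and asparagine in hepatocytes, read 46.9 in the wild type and 32.7 in the knockout. Its difference of -0.52 was the lowest of the family and was -0.22 with quantile normalization, under which the median of all genes was -0.02. The lysosomal members Slc38a7, a glutamine carrier, and Slc38a9, the arginine sensor of mTORC1, differed by -0.35 and 0.04, the latter from probes at -0.11 and 0.18. Slc38a6 and Slc38a10 differed by 0.05 and -0.24. Slc38a5, Slc38a8 and Slc38a11 were below background on both arrays.

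Of the Slc6 carriers of neutral amino acids, glycine and proline, 1 of 4 measured genes was higher and 2 were lower, and Slc6a14 was well above background in the knockout alone. Slc6a17, a carrier of neutral amino acids described in synaptic vesicles of neurons, read 0.149 in the wild type and 0.514 in the knockout, or 3.44-fold higher. With normexp its difference was 1.09 in place of 1.78. Slc6a14, which takes up a broad range of neutral and cationic amino acids, read 0.0127 and was not well above background in the wild type, and read 0.173 in the knockout. It was at least 2.92-fold higher by the bound that the background allows. Among all 2184 genes that were well above background in the knockout alone, 26.0% reached a bound of 1.5-fold, and both Slc members of this kind did. Of 388 genes well above background in the wild type alone 99.2% did so in the other direction, and 0 carriers were of that kind. These shares cannot be compared, because the lowest level well above background was 0.0593 in the wild type and 0.0368 in the knockout. With that gap nearly every gene measured in the wild type alone passes 1.5-fold by construction. Slc6a20a, a carrier of proline and related imino acids, read 0.190 and 0.116, or 1.64-fold lower, and Slc6a16, whose substrate is not established, read 0.728 and 0.419, or 1.74-fold lower. Both turned positive with spike-in scaling, at 0.11 and 0.03, and Slc6a20a fell short of 1.5-fold with normexp, at -0.56. Slc6a9, the glycine carrier known from brain and red cell precursors, read 11.9 and 10.8. Its 2 probes gave -0.15 and -0.12 but share 51 of 60 bases, so they do not check each other. Slc6a19, the main neutral amino acid carrier of gut and kidney, was below background on both arrays with Slc6a5, Slc6a7, Slc6a15, Slc6a18 and Slc6a20b.

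The other Slc6 members carry taurine, betaine, GABA, creatine or monoamines, and 1 of the 4 measured was higher and 0 lower. Slc6a8, the creatine carrier, read 0.790 in the wild type and 1.28 in the knockout, or 1.62-fold higher. Slc6a13, a GABA and taurine carrier of the hepatocyte membrane, read 31.8 and 25.2, and Slc6a12, which carries betaine and GABA, 9.80 and 7.89. Slc6a6, the taurine carrier, read 3.02 and 2.36. These 3 differed by -0.34, -0.31 and -0.35, which lies within 1.5-fold. Slc6a2, Slc6a3 and Slc6a4, the monoamine carriers of neurons, and Slc6a11, a GABA carrier, were below background on both arrays.

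In the Slc36 and Slc43 families no measured gene differed by 1.5-fold. Slc36a1, a proton-coupled carrier of small amino acids in the lysosome membrane, differed by -0.56, from probes at -0.71 and -0.42, and fell just short of the threshold. It passed with quantile normalization (-0.59) and in the deposited value table (-0.60). Slc36a4 differed by -0.15 from 1 probe, while Slc36a2 and Slc36a3 were below background on both arrays. Slc43a1 and Slc43a2, facilitators of large neutral amino acids, differed by -0.20 and 0.44. Slc43a3, a relative that carries purine bases, read 2.62 and 3.28, a difference of 0.33. Slc7a6os, which matches the naming pattern but is a neighbour on the opposite strand of Slc7a6 and not a carrier, differed by -0.15, and leaving it out kept the counts at 5 higher and 6 lower, of 33. A gene that RefSeq now calls Slc6a21, which the array files list under an older name and the rule therefore passed over, read 0.144 and 0.117.

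**Figure D4:**
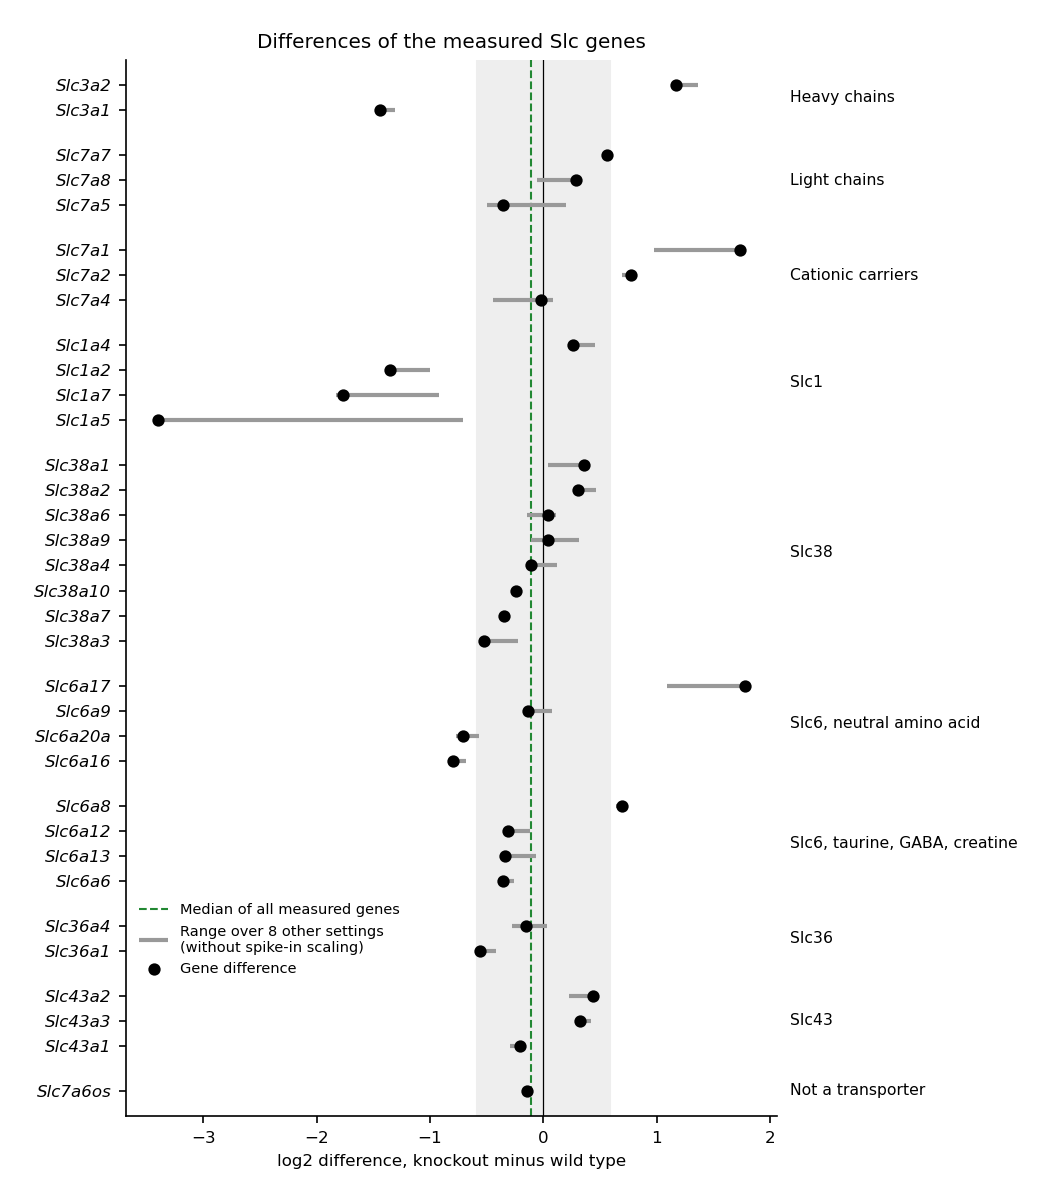
Black points are the log2 differences, knockout minus wild type, of the 34 measured Slc genes grouped by role, grey bars span the values under 8 other settings without spike-in scaling, and the grey band is the range within 1.5-fold. The dashed line is the median of all measured genes at -0.11; the 5 higher and 6 lower genes have bars that stay on 1 side of 0.

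Low signals set a limit on these values. The 39 member probes that were not well above background on either array had a median difference of -0.82 and ran from -0.94 to 0.76. The 75th percentile by which signals were divided was 461 in the wild type and 722 in the knockout. Genes read only by such probes were given no difference, and when they were counted all the same, 30 of the 63 genes appeared as lower.

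Known Atf4 targets among the carriers were compared with other genes of the same response. Of 9 such carriers 7 were measured. Slc7a1 and Slc3a2 were higher by 1.5-fold, Slc1a5 counted as lower by its first probe, and Slc1a4, Slc38a2, Slc6a9 and Slc7a5 differed by 0.26, 0.30, -0.13 and -0.36. Slc7a3 and Slc7a11 were below background. The median of the 7 was 0.26, and that of the 27 measured other members was -0.15. Of 28 Atf4 regulators and targets outside the carrier families 22 were measured, with 15 higher, 2 lower and a median of 0.73. Atf3, an early transcription factor of the stress response, was higher by 47.8-fold, Nupr1, a stress protein of chromatin, 37.0-fold, Trib3, a pseudokinase that restrains Atf4 signalling, 16.2-fold, asparagine synthetase (Asns) 13.7-fold, Ddit4, an inhibitor of mTORC1, 10.5-fold and Ddit3, which encodes Chop, 4.26-fold. Atf4 itself read 6.93 in the wild type and 11.9 in the knockout. Of the carriers measured on both arrays, the greatest positive difference among the known Atf4 targets was thus the 3.33-fold of Slc7a1. With normexp it was that of Slc3a2, at 1.24 on the log2 scale against 0.98 for Slc7a1.

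The promoter windows of the carriers were searched for the element TGATGNAA, the core of the site that Atf4 binds with C/EBP partners, on either strand of the 250 bases before each RefSeq start site (GRCm38.p6). Of the 63 genes 45 were in the promoter table, and 2 of these, Slc7a11 and Slc7a7, held a match, while 3.91% of all 27025 genes did. The windows are shown because Slc7a11 holds a pair of matches in opposite orientation, starting 66 and 47 bases before the start site, and Slc7a7 holds 1 match before each of 2 start sites. Matches are in capitals, and the sequence runs 5′ to 3′ along the gene.
Slc7a11 (chr3:50443628-50443704, minus strand): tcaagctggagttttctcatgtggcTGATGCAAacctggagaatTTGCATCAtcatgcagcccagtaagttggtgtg
Slc7a7, first window (chr14:54417913-54417952, minus strand): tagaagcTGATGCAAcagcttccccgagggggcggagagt
Slc7a7, second window (chr14:54418053-54418110, minus strand): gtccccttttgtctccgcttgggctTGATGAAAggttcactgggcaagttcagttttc
At least 2 matches in 1 window were found in 0.0396% of all 32851 windows. Slc7a11 was not well above background on either array, and Slc7a7 differed by 0.56. Slc3a2, Slc7a1 and Slc6a17, the 3 higher genes in the table, held 0 matches in this window, which says nothing of sites elsewhere in these genes.

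Amino acid carriers outside these families were read for comparison, with 2 of 15 measured higher, 0 lower and a median of -0.07. Slc25a22, which carries glutamate into mitochondria, read 5.44 and 10.4, or 1.91-fold higher, and Slc15a2, a carrier of small peptides, read 0.102 and 0.163, or 1.61-fold higher. The difference of Slc15a2 shrank from 0.68 to 0.12 with normexp. Among 28 measured genes of mTORC1, its amino acid sensing and its inhibitors, the median difference was 0.05, and 2 passed 1.5-fold upwards and 1 downwards. Of the genes that passed, Ddit4 was also counted among the Atf4 targets above. The others were Rragc, a GTPase of the lysosomal sensing complex, at 1.73-fold higher and Lamtor4, a subunit of its membrane anchor, at 1.64-fold lower. Rragc differed by 0.44, under 1.5-fold, when the brightest probe stood for each gene. Lamtor4 came within 1.5-fold with quantile (-0.47) and loess (-0.46) normalization.

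Slc1a2 shares its place around the central vein with glutamine synthetase (Glul), and genes of both liver zones were therefore read beside it. Glul read 51.2 in the wild type and 27.0 in the knockout, or 1.90-fold lower. Oat, the ornithine aminotransferase of the same cells, was 1.66-fold lower. With spike-in scaling Glul differed by -0.10 and Oat by 0.10. Of 9 measured pericentral genes 4 were lower and 1 was higher, with a median of -0.58, and the higher one was the ammonia carrier Rhbg at 2.31-fold. With quantile normalization 2 of the 9 were lower and the median was -0.02, with Glul at -0.64 and Oat at -0.43. Of 10 periportal genes 0 were lower and 1 was higher, with a median of -0.05, which became 0.29 with quantile normalization and 3 higher. The 1 higher gene at the array scaling was Cps1, which starts the urea cycle, at 1.52-fold.

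Hepatocyte markers were well above background on both arrays (6 of 6), with 2 lower, 1 higher and a median difference of -0.34. With quantile normalization 0 were lower and 2 higher, and that median was 0.15. Their summed level was 2095 in the wild type and 1466 in the knockout, where each gene enters a sum, here and for the other lists, with the mean of all its probes, dim ones included. Markers of other cell types differed between the samples. Stellate cell markers were higher for 8 of 10 genes, with a summed level of 48.1 in the wild type and 71.5 in the knockout, and macrophage markers for 6 of 10 (39.4 and 55.4). Bile duct markers were higher for 4 of 5 measured (0.920 and 2.19), with Epcam below background on both arrays, T, B and NK cell markers for 4 of 8 with 1 lower (5.00 and 9.76), and endothelial markers for 3 of 8 (38.9 and 35.8). Most of the stellate sums came from Dcn (44.6 and 63.0), which was not among the 8 higher stellate genes. Clec4g gave most of the endothelial sums (31.0 and 28.3). Normexp left 3 of 5 bile duct, 6 of 10 stellate, 5 of 10 macrophage and 2 of 8 endothelial markers higher. Only 1 bile duct marker, a higher one, kept a value with the stricter filter on dim probes. With normexp 1 of the 8 T, B and NK cell markers was higher and 0 lower. With the stricter filter 1 of 4 T, B and NK cell markers was higher and 1 lower. Neutrophil markers were lower for 4 of 5 measured (4.95 and 2.61), and for 1 of 5 with spike-in scaling. Skeletal muscle markers were well above background for 8 of 10 genes in the wild type and 1 of 10 in the knockout (summed levels of 7.42 and 0.197, over all probes). The gene well above background on both arrays was Pvalb, whose measured probe read 0.939 and 0.367. Of the fat cell markers Adipoq, Plin1 and Lep were below background on both arrays while of the 2 measured ones Cfd was 33.6-fold lower and Fabp4 read 2.43 and 2.455 (summed levels of 6.76 and 2.64). Of 5 pancreas markers on the array 2 were well above background in the wild type and 1 in the knockout (1.098 and 0.547). Their part in the differences of the carriers, among them those of Slc1a5, Slc6a14 and Slc6a17, was not tested.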

How the data were processed

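Spot intensities are the processed signals of Agilent Feature Extraction, background-subtracted and detrended within each array, per the file headers. These name module version 10.7.1.1, and the submitters' processing notes name 9.5.1.1. In the value table deposited by the authors, intensities are linear, not logs, with a median of 45.9 in both columns and Spearman correlations of 0.9999 and 1.0 with the scanner signals across probes, and how these were centred is not given in the sources used here. Signals were divided by the array's 75th percentile and log2-transformed, copies of a probe were averaged without outlier spots, and a probe was called measured if 50% or more of its remaining spots were well above background. Genes took the mean difference of their probes measured on both arrays. For a lower bound the bright array was set against the dim probe's level or, if higher, the lowest level well above background on that array. Probes were named through RefSeq accessions (GRCm38.p6): 26761 by accession and 4459 by symbol or synonym, with 8209 keeping the file's name. Member probes had 0 saturated spots. The number of arrays limits the precision.

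Members, gene lists and named genes were chosen with earlier results of these data known. Members are named except 1 that is not reported here, and beside them genes of fixed lists with the greatest differences. Atf4 and the cell markers Epcam, Adipoq, Plin1, Lep, Cfd, Fabp4, Pvalb, Dcn and Clec4g were named after their values were seen. The 9 alternative settings changed scaling, background, filter, probe choice and source table. The script was tested on simulated arrays. Tools were Python 3.11.15, R 4.3.3 with limma 3.58.1 and statsmodels 0.14.6.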

Additional observations from a re-analysis of the deposited data

How the results depend on the processing

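The 11 genes counted as higher or lower kept their direction in the 9 other settings, wherever they had a value, except that Slc6a16 and Slc6a20a were reversed to 0.027 and 0.11 by scaling to E1A spike-in spots. That scaling moved the median of all genes by 0.82, loess normalization by 0.11 and the lack of a filter by -0.20. With spike-in scaling 21 carrier genes were higher and 3 lower, their median was 0.68, and of all genes 9600 were higher and 192 lower. With no filter on dim probes 30 carrier genes were lower, their median was -0.56, and of all genes 3164 were higher and 11306 lower. With the stricter filter 3 carrier genes were higher and 3 lower of 23, and of all genes 655 (5.70%) and 1269 (11.0%) of 11488. At 2-fold 3 carrier genes were higher, and of all genes 447 were higher and 560 lower. With normexp 658 of all genes were higher, and with loess the carriers' median was 0.0087. The cause of these shifts was not tested. Among all genes, 38.6% of those past 1.5-fold were higher in the main setting, 50.8% after loess and 31.0% with normexp. Beside the 11, 8 carriers (Slc36a4, Slc38a4, Slc38a6, Slc38a9, Slc6a9, Slc7a4, Slc7a5 and Slc7a8) turned sign in a setting other than the spike-in scaling, with a difference of at most 0.36 in size. Dim signals near background limit Slc1a7, Slc7a5, the last probe of Slc1a2, the second probe of Slc1a5 and the knockout value of its first. With the stricter filter on dim probes 6 of the 11 kept a value, each with the same call. Slc1a5, Slc1a7, Slc6a17, Slc6a20a and Slc7a1 had none. No paired analysis was possible because each group holds 1 array.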
